A study of Rattus norvegicus with 12 samples.

Results

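The transcriptome of rat cells after 4 h of SIN-1 was compared with that of control cells, over all 18166 genes that the platform annotation names with a single symbol. The comparison used 6 of the 12 arrays of the series, 3 labelled with a SIN-1 time of 4 h and 3 labelled control. The other arrays, 3 at 70 min and 3 at 8 h of SIN-1, entered the same model for its estimate of the spread and for direct tests between times. Samples were labelled primary rat cardiomyocytes, source wt, all grown in DMEM/F12 with fetal bovine and horse serum, and the design text calls them biological triplicates without saying that the cultures were separate. If they were not, the p-values measure technical spread only. The labels give no strain, age or sex of the animals, no SIN-1 dose, and neither a vehicle nor a culture time for the control, so an effect of either cannot be told apart from that of SIN-1.

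SIN-1 (3-morpholinosydnonimine) breaks down in solution to nitric oxide and superoxide, which combine into the oxidant and nitrating agent peroxynitrite. Cells answer oxidants and electrophiles through NRF2, a transcription factor held down by KEAP1 that switches on glutathione, quinone and thioredoxin enzymes, and through the aryl hydrocarbon receptor (AhR), which drives cytochrome P450 genes. Growth factor signals act through MAP kinases on immediate early genes, mechanical signals act through YAP/TEAD and SRF on cytoskeletal and matrix genes, and E2F factors drive the genes of DNA replication.

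Levels are log2 expression of 1 probe per gene, and a difference is the mean of the 3 arrays at 4 h minus the mean of the 3 control arrays on that scale (n = 3 a group throughout). Array medians were 5.00 to 5.05 in the controls and 4.99, 4.98 and 5.09 at 4 h, replicate 3 being the high one. Correlations across genes within a group were 0.9938 to 0.9945 for the controls and 0.9906 to 0.9919 at 4 h.

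The labelled cell type was set against marker genes. In the controls, several cardiomyocyte genes of the sarcomere and calcium release lay near the median level of unnamed probes, 4.33, although over all arrays only 2 of the 12 measured cardiomyocyte markers were at or below it. Myh6, the alpha heavy chain of cardiac myosin, was at 4.16, 3.88 and 3.92. Ryr2, the calcium release channel, was at 4.20, 4.31 and 4.13, and Actn2, the Z-disc actinin, at 4.33, 4.30 and 4.13. Tnnt2, cardiac troponin T, was at 5.87, 6.01 and 6.09. Some fibroblast genes were bright, with Col1a1, a collagen chain, at 12.74 to 12.76 and Vim, an intermediate filament, at 13.11 to 13.12. Neither list was uniform. Dpt, a fibroblast marker, was at 5.05, 5.17 and 5.16 in the controls, and Pln, a cardiomyocyte marker, at 8.37, 8.03 and 8.08. Below the median gene level of 5.75 lay 4 of 18 fibroblast markers and 8 of 12 cardiomyocyte markers. Levels of different probes are not on 1 scale, so no share of cell types follows, and the samples are called cultures labelled cardiomyocytes here. In bulk RNA fewer cells of a type and less RNA per cell cannot be told apart.

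Averaged over each marker list, the fibroblast genes (18 markers) ran from 9.16 to 9.19 in the controls and from 9.01 to 9.06 at 4 h, without overlap, and 2 of 18 were called lower. In the other lists the 2 groups of arrays overlapped. Cardiomyocyte markers (12) ran from 5.17 to 5.25 and from 5.13 to 5.31, with 1 called lower. Endothelial markers (10) ran from 4.81 to 4.82 and from 4.76 to 4.97, and smooth muscle and pericyte markers (10) from 7.66 to 7.76 and from 7.61 to 7.72, with 2 called lower. Macrophage and leukocyte markers (17) ran from 4.44 to 4.55 and from 4.38 to 4.66, and 9 of them were at or below the median of unnamed probes. Schwann and neuronal markers (7) ran from 5.59 to 5.73 and from 5.50 to 5.68. The part of any such cell type in the results was not tested.

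After 4 h the genes that differed most were Cyp1a1 of the AhR list and histone and replication genes on the high side, and Ankrd1, Egr1, Rgs4, Pkib and Edn1 on the low side. At a limma adjusted p under 0.05, 699 of 18166 genes were called, which is 3.85% of all genes tested, 378 of them higher (2.08%) and 321 lower (1.77%). The balance depended on the setting. It turned to 158 higher and 183 lower with arrays centred on their medians and to 154 and 185 when the prior variance had no intensity trend. It also turned with only the compared groups in the fit (277 and 280) and without 4 h replicate 1 (200 and 237). The same held without 4 h replicate 2 (262 and 288) and without control replicate 2 (168 and 205). Under the remaining settings higher calls were more frequent. Most differences were small. In 521 called genes, 74.5%, the difference was under 1.5-fold, in 162 it was from 1.5-fold to 2-fold, and in 16, 4 higher and 12 lower, it was at least 2-fold. The median called difference was 0.40 upwards and -0.50 downwards. The 3 arrays of one group all lay on 1 side of the 3 of the other in 3689 genes, 20.3% of those tested, and in 696 of the 699 called genes.

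The calls were uneven in how far they rested on single arrays. Of the 699, 282 held when any 1 of the 6 arrays was left out (134 higher, 148 lower), and 242 of these also held under each other setting of the model in which they were tested, the replicate block aside. Values below are given mainly for genes of that last kind, a preference chosen after the values were seen, and the others are counted. Counts of called list members are given beside the 3.85% called over all genes. The members and lists were chosen with earlier results of these data known, so a higher share is not independent support for a list.

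**Figure D1:**
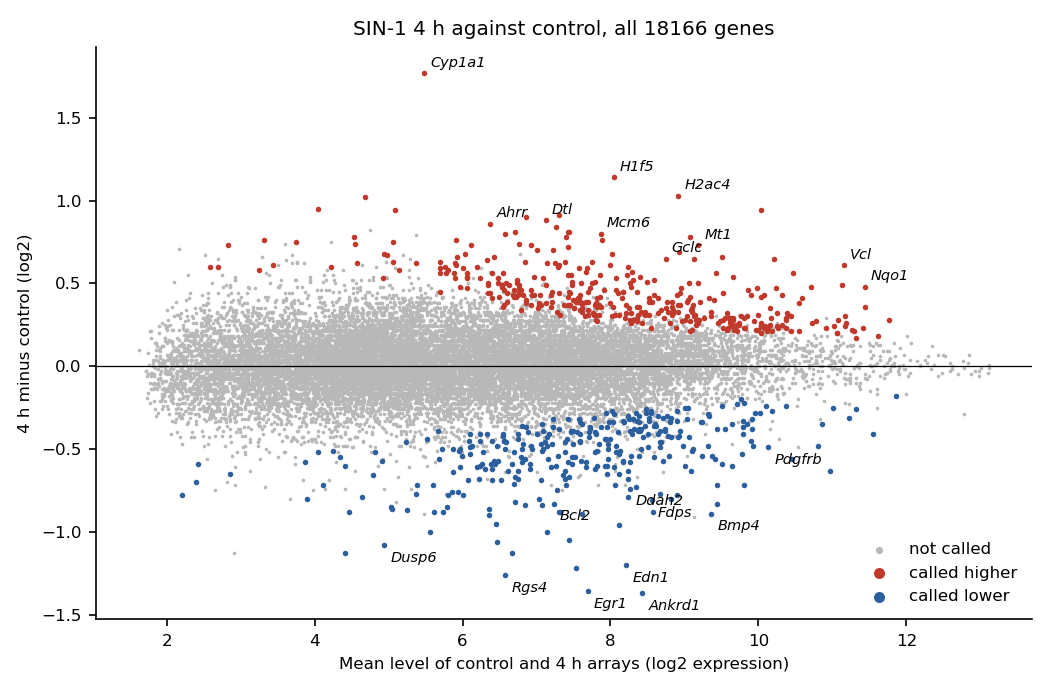
Difference between 4 h of SIN-1 and control (log2, vertical axis) against the mean level of the 6 arrays (log2 expression, horizontal axis) for all 18166 genes, with genes called higher in red, called lower in blue and the rest in grey. Of the 699 called genes 59 lie below the median gene level of 5.75, with Cyp1a1 the highest point at 1.77 and Ankrd1 and Egr1 the lowest at -1.37 and -1.36.

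Cyp1a1, of the AhR pathway, had the largest increase of all called genes. Of 11 measured members, 5 rose and 1 fell, against 3.85% called over all genes, and the 6 calls held without any 1 array and under every other setting. Cyp1a1, a cytochrome P450 that oxidises aromatic hydrocarbons and the textbook target of the receptor, was at 4.45, 4.51 and 4.85 in the controls and at 6.43, 6.49 and 6.19 at 4 h. The lowest treated array was well above the highest control, although the control values lay close to the level of unnamed probes. The difference was 1.77 ± 0.15 (SE, 3.40-fold, adjusted p = 4.73e-06). Ahrr, the repressor that competes with the receptor, was at 5.83, 6.04 and 5.98 and then at 6.83, 6.92 and 6.67, again with no overlap (0.86 ± 0.11, SE, adjusted p = 0.00025). Of the 7 measured targets 4 were called higher. Another 2 were not called, but all their 4 h arrays lay below the controls, as in 1583 of all 18166 genes. Besides Cyp1a1, the targets that rose were Aldh3a1, an aldehyde dehydrogenase, by 0.78, Cyp1b1, a second P450 of the family, by 0.76, and Nqo1, a quinone reductase shared with the NRF2 list, by 0.48.

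The receptor itself went the other way. Ahr was at 9.34, 9.34 and 9.42 in the controls and at 8.73, 8.94 and 8.89 at 4 h, all treated arrays lying below the controls, and fell by 0.51 (SE 0.06, adjusted p = 0.000144). Its partner Arnt2 was at -0.29 ± 0.09 (SE, adjusted p = 0.0886). The targets differed in their course. Set directly against 70 min of SIN-1, Cyp1a1 and Ahrr were higher at 4 h by 1.12 and 0.49 (adjusted p = 0.000105 and 0.0109), Cyp1b1 was lower by 0.51 (difference -0.51, adjusted p = 0.000668), and Aldh3a1 was at 0.29 (adjusted p = 0.095). The 8 h arrays lay below those of 4 h for Cyp1a1 (-1.35, adjusted p = 3.78e-05), Ahrr (-0.58, 0.00679) and Cyp1b1 (-0.63, 0.000193). Over all genes 1386 (7.63%) were called in 4 h against 70 min, 58.7% of them higher at 4 h, or 73.2% with arrays centred on their medians. In 8 h against 4 h 637 (3.51%) were called, 56.2% of them higher at 8 h, or 66.3% with that centring. These direct comparisons share the 4 h arrays with the comparison to control.

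Promoters were looked up for the largest called members of each list searched for a pattern. Cyp1a1, Hmox1 and Ankrd1 had no promoter entry. Gclc, Fdps, Lss and Nuak1 held no match in these bases and are not printed, so the promoters shown are those with a match. In the AhR list this left Ahrr, with 3 copies of GCGTG, the core that the receptor and its partner bind. The 250 bases before its annotated start are printed. They are from RefSeq, build GRCr8, chr1:30821969-30822218 on the plus strand, in lower case with the core in capitals, the first bases of the 3 matches lying at -142, -117 and -57 from the start.
Ahrr: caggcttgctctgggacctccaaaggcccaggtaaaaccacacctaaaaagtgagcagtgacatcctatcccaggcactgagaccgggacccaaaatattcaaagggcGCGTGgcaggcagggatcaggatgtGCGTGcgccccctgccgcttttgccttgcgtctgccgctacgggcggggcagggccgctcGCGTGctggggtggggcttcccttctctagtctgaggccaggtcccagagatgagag
The core, searched on both strands from 250 bases before to 50 after the start, is in 31.1% of 27457 RefSeq promoters, so a match is common. Of the 5 higher members 3 had a promoter in the table, Ahrr, Cyp1b1 and Nqo1, and all 3 held it. In the whole list it was in 6 of 9. A match describes letters and is neither a site nor a cause.

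**Figure D2:**
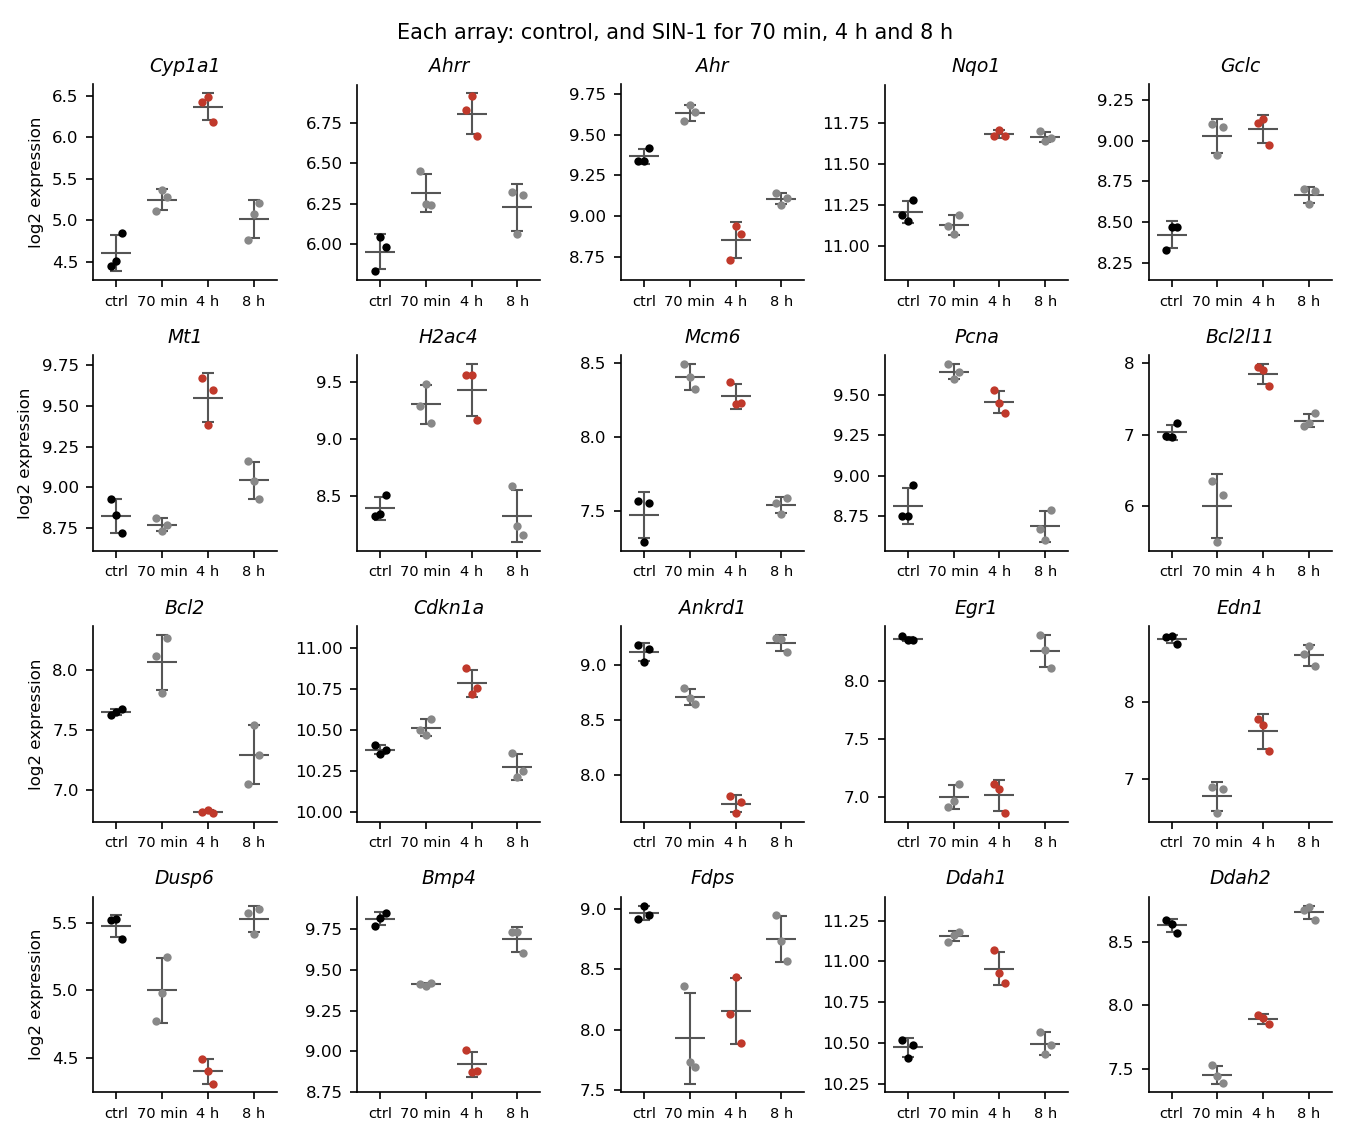
Log2 expression of 20 named genes in each of the 12 arrays, by group on the horizontal axis (control, then SIN-1 for 70 min, 4 h and 8 h); dots are arrays, long bars the means of 3 arrays, short bars the SD, and the 4 h arrays are red. Each panel has its own vertical axis; the 4 h arrays of Cyp1a1 lie between 6.19 and 6.49, above all others, and those of Bcl2 between 6.81 and 6.83, below all others.

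NRF2 target genes that were called all rose. Of 38 measured members 12 rose, 31.6%, and none fell, with a list median of 0.11 against 0.01 over all genes. Leaving out 1 array cut the 12 to between 6 and 10, and 6 were called when arrays were centred on their medians. Gclc, the catalytic subunit of the enzyme that starts glutathione synthesis, was at 8.33, 8.47 and 8.47 in the controls and at 9.11, 9.13 and 8.97 at 4 h. The groups were far apart, with a difference of 0.65 ± 0.07 (SE, 1.56-fold, adjusted p = 6.14e-05). Hmox1, heme oxygenase, rose by 0.52 ± 0.08 (SE), from 8.43, 8.26 and 8.30 to 8.97, 8.81 and 8.76. Nqo1 was at 11.19, 11.15 and 11.28 and then at 11.67, 11.71 and 11.67, the treated arrays lying close together. Txnrd1, thioredoxin reductase, rose by 0.40, and Abcc4, an efflux pump of conjugates and cyclic nucleotides, by 0.37. Ptgr1, which reduces reactive alkenals, rose by 0.39 and kept its call without any 1 array, though not under 2 of the other settings.

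The remaining 6 that rose, Gss, Osgin1, Akr1b8, Chac1, Gsr and Taldo1, at 0.29 to 0.50, each lost the call when at least 1 array was left out. Of these Chac1, which breaks down glutathione, is also on the ATF4 list. Gclm, the regulatory partner of Gclc, was at 0.26 ± 0.12 (SE, adjusted p = 0.323), and Nfe2l2, which encodes NRF2, at -0.10 ± 0.05 (adjusted p = 0.354). Members were on different courses. Hmox1 was lower at 4 h than at 70 min (-0.59, adjusted p = 0.000159), Nqo1 was higher (0.55, 3.75e-07), and Gclc was at 0.04 (0.805). At 8 h Nqo1 and Hmox1 were at -0.01 and 0.13 from their 4 h levels (adjusted p = 0.944 and 0.533), while Gclc was lower by 0.40 (difference -0.40, 0.00389). The antioxidant response element, searched as TGACNNNGC on both strands, is in 12.2% of all promoters, in 8 of 33 of the list and in 0 of the 9 higher members with a promoter, which says only that these letters are not in this window.

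Metallothioneins, small cysteine-rich proteins that bind zinc and scavenge radicals, rose in 2 of 3 measured members. Mt1 was at 8.93, 8.83 and 8.72 in the controls and at 9.67, 9.38 and 9.60 at 4 h. Its groups did not overlap, and it was higher by 0.73 ± 0.08 (SE, adjusted p = 6.14e-05). Mt2A was higher by 0.38 ± 0.05 (adjusted p = 0.000391), and both were higher than at 70 min (0.78 and 0.31, adjusted p = 9.4e-06 and 0.00103). Mt3, the third, was at -0.08 (adjusted p = 0.858). Of 8 measured zinc transporters limma called none, and 1 had an unadjusted p under 0.05, Slc30a1, the zinc exporter, at 0.50 ± 0.16 (adjusted p = 0.121). Of 22 enzymes of superoxide and peroxide removal and their regulators 1 was called, 4.55% against 3.85% over all genes. That gene was Txnip, the inhibitor of thioredoxin. It was at 10.10, 10.07 and 10.14 and then at 10.53, 10.56 and 10.53 (0.43 ± 0.05, SE, adjusted p = 0.000139). Limma called none of the 4 genes of superoxide removal, and 0 had an unadjusted p under 0.05.

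Many DNA replication genes rose at 4 h. Of 49 measured members 21 rose, 42.9%, none fell, and all 49 differences lay above 0, with a median of 0.38 against 0.01 over all genes. The called number was 14 to 22 with 1 array left out and 15 to 24 under the other settings, and 14 genes kept the call without any 1 array. By role, 7 of 12 licensing genes, 13 of 33 fork genes and 1 of 4 genes of nucleotide supply rose. Mcm6, a subunit of the helicase that opens the double strand, was at 7.57, 7.29 and 7.55 in the controls and at 8.37, 8.22 and 8.23 at 4 h. The groups were apart, with a difference of 0.80 ± 0.09 (SE, adjusted p = 4.94e-05). The other 5 subunits of that helicase rose as well, Mcm5 by 0.72, Mcm2 by 0.61, Mcm4 by 0.60, Mcm3 by 0.55 and Mcm7 by 0.49, as did Mcm10, which activates it, by 0.80.

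At the fork, Pcna, the sliding clamp of the polymerases, was at 8.75, 8.75 and 8.94 and then at 9.53, 9.45 and 9.39. It was higher in every treated array, by 0.65 ± 0.07 (SE, adjusted p = 5.23e-05). Dtl, the adaptor of a ubiquitin ligase that acts on clamp-bound proteins, was at 6.83, 6.63 and 6.59 and then at 7.51, 7.67 and 7.53. Its difference of 0.88 ± 0.10 (adjusted p = 6.07e-05) was the largest of the list. Uhrf1, which carries methylation over to new DNA, and Rpa2, of the protein that coats single strands, rose by 0.62 each, Fen1, the flap nuclease, by 0.58, and Pold2, a subunit of polymerase delta, by 0.47. Clspn and Topbp1, checkpoint adaptors on the DNA repair list, rose by 0.73 and 0.50, and they were the only 2 of 5 called members of that list whose call held without any 1 array.

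**Figure D3:**
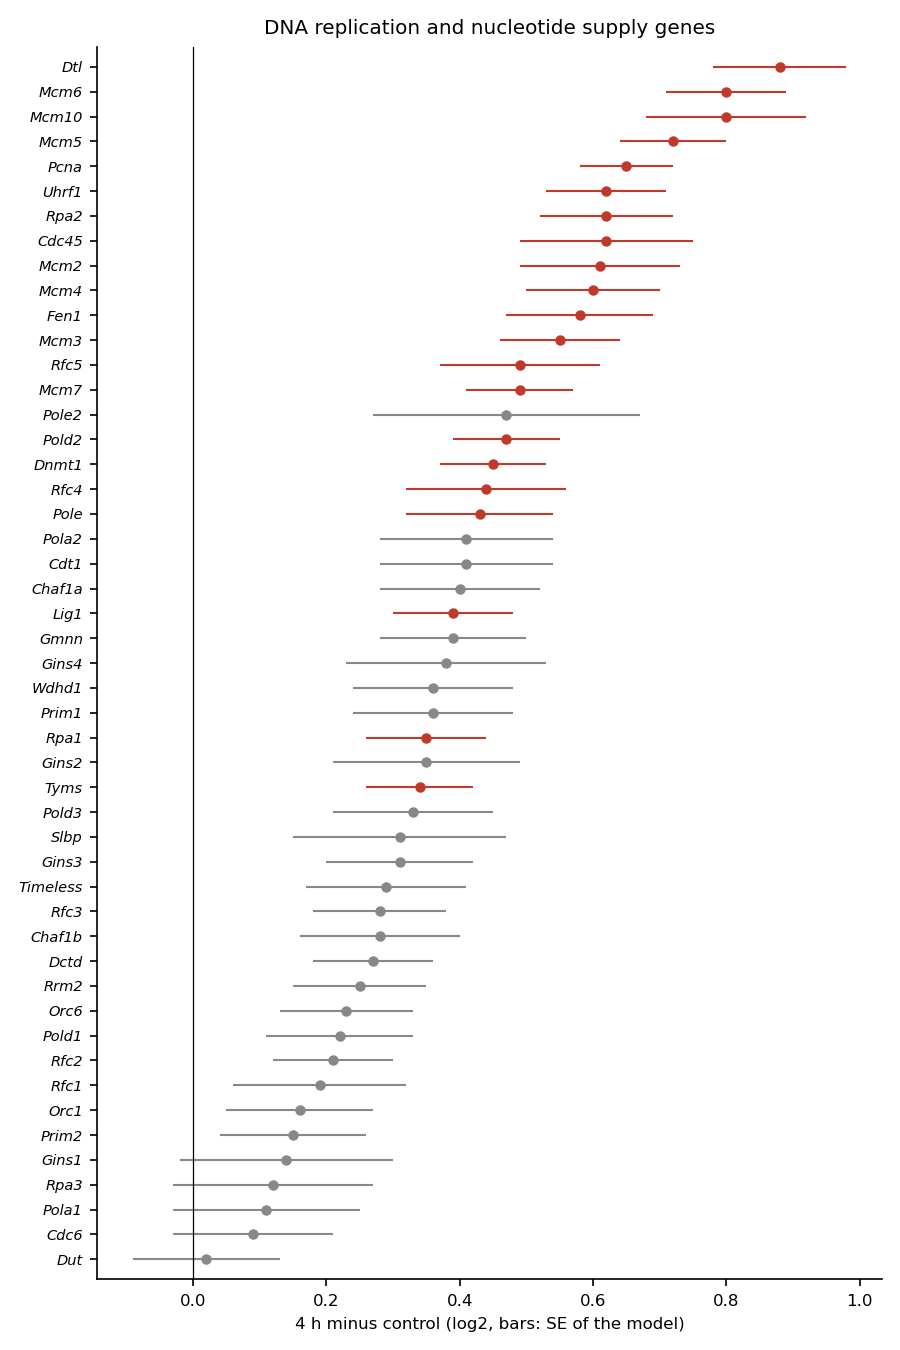
Difference between 4 h and control (log2, horizontal axis) for each of the 49 measured DNA replication and nucleotide supply genes, ordered by size; dots are differences of means over 3 arrays a group, bars the SE of the model, red the 21 called genes. All dots lie at or above 0.02, from Dut at the bottom to Dtl at 0.88.

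The course of the replication genes was read from the direct tests. Dtl, Mcm6 and Pcna were at -0.28, -0.13 and -0.18 from their 70 min levels (adjusted p = 0.103, 0.44 and 0.147), while Mcm5 and Fen1 were lower than at 70 min (-0.34 and -0.40, adjusted p = 0.02 and 0.0317). By 8 h Dtl had fallen from its 4 h level by 1.03 (adjusted p = 1.11e-05), Mcm6 by 0.73 and Pcna by 0.77. The median difference of the list from control was 0.44 at 70 min, 0.38 at 4 h and 0.02 at 8 h, all against the same 3 control arrays.

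Promoter sequence is given for Dtl and Mcm6, taken by the same rule, which both hold the E2F pattern. E2F factors bind near the start of such genes. The E2F pattern TTTNNCGC was searched on both strands over the same window. The 250 bases before the start are from RefSeq, build GRCr8, read along the minus strand on which both genes lie, Dtl at chr13:105685922-105686171 and Mcm6 at chr13:42404353-42404602. Capitals mark the matches, with first bases at -44 in Dtl and, as 2 overlapping matches on opposite strands, at -139 and -135 in Mcm6.
Dtl: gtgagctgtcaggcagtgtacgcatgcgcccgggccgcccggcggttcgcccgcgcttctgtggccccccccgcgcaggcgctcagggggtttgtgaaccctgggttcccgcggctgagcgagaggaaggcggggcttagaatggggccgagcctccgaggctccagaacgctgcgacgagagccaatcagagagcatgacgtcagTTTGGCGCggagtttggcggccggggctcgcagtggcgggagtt
Mcm6: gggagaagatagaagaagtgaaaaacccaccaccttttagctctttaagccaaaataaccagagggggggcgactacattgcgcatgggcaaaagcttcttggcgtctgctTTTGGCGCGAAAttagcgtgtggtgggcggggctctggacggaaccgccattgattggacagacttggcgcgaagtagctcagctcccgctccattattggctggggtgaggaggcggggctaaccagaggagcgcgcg
The pattern is in 5.19% of all promoters, in 21 of 43 promoters of the list and in 11 of the 20 called members that have one. Those 11 were Dtl, Mcm6, Mcm5, Rpa2, Mcm2, Mcm3, Mcm7, Dnmt1, Pole, Lig1 and Tyms. Uncalled members hold the pattern too, so a match does not mark the calls.

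Histone genes, whose core and linker members are made with new DNA, also rose. Of 20 measured, 10 rose and none fell, and 7 of the 10 calls held without any 1 array. H1f5, a linker histone, was at 7.54, 7.24 and 7.65 in the controls and at 8.82, 8.58 and 8.43 at 4 h. Its groups were well apart, and the difference was 1.14 ± 0.13 (SE, 2.20-fold, adjusted p = 6.14e-05). H2ac4, of the core histone H2A, was at 8.33, 8.35 and 8.51 and then at 9.56, 9.56 and 9.17 (1.03 ± 0.12, adjusted p = 7.93e-05). H2ac12 rose by 0.94, the damage-linked variant H2ax by 0.69, H2bc12 by 0.56, Hist2h3c2 by 0.49 and H3f3b by 0.35. Outside the list H2bc8 rose by 0.78. A probe can read several histone copies of almost the same sequence, so the members are not independent. H1f1, at 0.76, lost its call when control replicate 1 was left out (adjusted p = 0.0686), and Hist1h2bo, at 1.02, when control replicate 1 or 4 h replicate 1 was left out (0.0715 and 0.0748).

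Cell-cycle control genes were mixed, and mitotic genes were for the most part not called. Mybl2, a transcription factor of cycling cells, was at 6.27, 6.30 and 6.66 and then at 7.40, 7.29 and 7.24, every treated array lying higher (0.90 ± 0.11, SE, adjusted p = 0.000118). It was the only 1 of 5 higher members of the 31 E2F and G1/S genes to keep its call without any 1 array, and 2 members fell. Those were Cdkn2b, an inhibitor of the G1 kinases, by 0.47, and Myc by 0.65. Cdkn1a, the p21 inhibitor, was at 10.41, 10.35 and 10.38 and then at 10.88, 10.72 and 10.76. It lay higher in all 3 treated arrays (0.41 ± 0.06, adjusted p = 0.000315) and was also higher than at 70 min (0.28, 0.00421). With Gadd45a, a stress-induced growth-arrest gene (0.39), it made up the 2 of 25 p53 targets that were called. That is 8.0%, against 3.85% over all genes. Of 39 mitotic genes 3 rose (7.69%), Ckap2, Bub1b and Plk1, and each lost the call without at least 1 array. Of the 39 differences 31 lay above 0, against 9742 of 18166 over all genes.

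The BCL2 family sets the threshold for mitochondrial cell death. Of 20 genes of that family and of other cell death control 3 were called, 2 of 13 death-promoting genes higher and 1 of 7 survival genes lower. Bcl2, the founding survival member, was at 7.62, 7.65 and 7.67 in the controls and at 6.82, 6.83 and 6.81 at 4 h. The arrays of each group lay close together and far from the other group, and Bcl2 fell by 0.83 (SE 0.12, adjusted p = 0.000538). Bcl2l11, which encodes the death-promoting protein BIM, was at 6.98, 6.97 and 7.16 and then at 7.95, 7.91 and 7.69. It rose by 0.81 ± 0.16 (adjusted p = 0.0064), and Bmf, a second death-promoting member, rose by 0.53 ± 0.11 (adjusted p = 0.00736). All 3 calls held under every setting. Bcl2l1, which encodes BCL-XL, was at -0.25 ± 0.09 (adjusted p = 0.172).

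**Figure D4:**
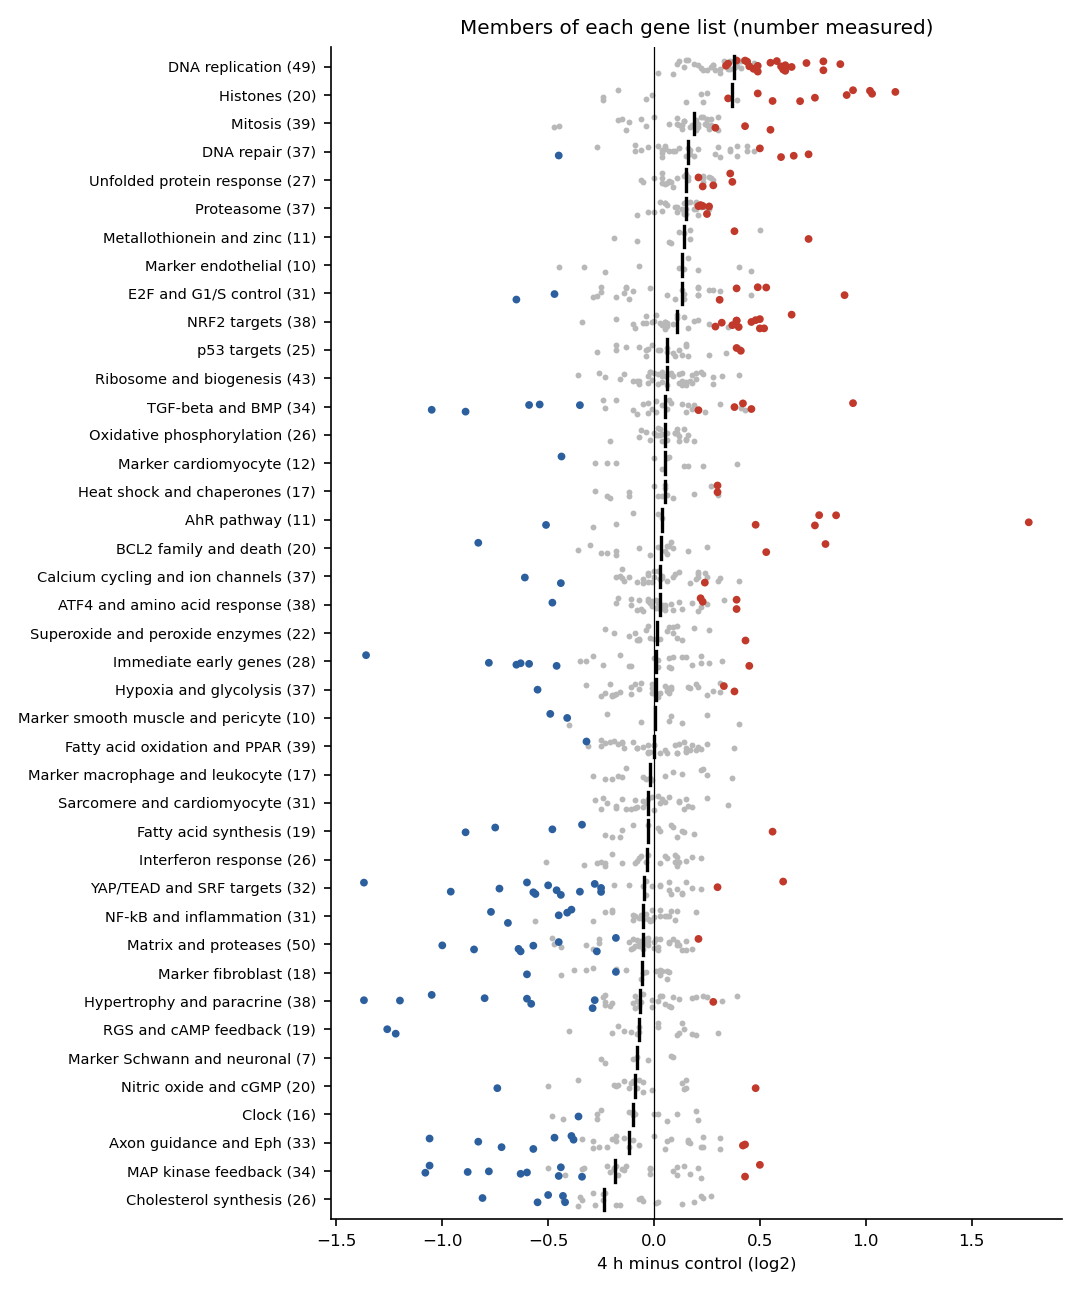
Difference between 4 h and control (log2, horizontal axis) of each measured member of the 41 gene lists, ordered by the list median (black bar), with the number measured in brackets; red and blue points are genes called higher and lower, grey points uncalled. DNA replication and histone lists lie at the top, with medians of 0.38 and 0.37, and cholesterol synthesis and MAP kinase feedback at the bottom, with -0.23 and -0.18.

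Immediate early genes were lower at 4 h where they were called, with 1 exception. Of 28 measured, 6 fell and 1 rose, Csrnp1 (0.45), which lost its call when any of 5 arrays was left out. Egr1, the zinc finger factor induced by ERK and SRF, was at 8.39, 8.36 and 8.36 in the controls and at 7.11, 7.07 and 6.86 at 4 h. It stood more than 2-fold lower in every treated array, with a difference of -1.36 ± 0.09 (SE, adjusted p = 3.38e-07). Fos was at 6.34, 6.46 and 6.39 and then at 5.56, 5.33 and 5.96. It was lower in all 3 arrays but spread widely (-0.78 ± 0.15, adjusted p = 0.00641). Zfp36, which speeds decay of cytokine messages, fell by 0.63. Nr4a1, an orphan receptor of the same class, was at -0.29 ± 0.13 (adjusted p = 0.289) and Atf3, a stress-induced factor, at 0.18 ± 0.13 (adjusted p = 0.573).

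Of 34 genes of MAP kinase feedback, ERK targets and the p38 cascade 9 fell and 2 rose, and 7 and 1 of these calls held without any 1 array. The phosphatases divided. Dusp6, which is specific for ERK, was at 5.52, 5.53 and 5.38 and then at 4.49, 4.40 and 4.31. All treated arrays were lower, by 1.08 on average (difference -1.08 ± 0.13, adjusted p = 0.000139), and close to the level of unnamed probes. Dusp1, which acts on nuclear p38, JNK and ERK, was at 9.28, 9.31 and 9.28 and then at 8.51, 8.50 and 8.51, a fall of 0.78 with almost no spread. Dusp10, which prefers p38 and JNK, rose by 0.50 ± 0.07 (adjusted p = 0.000692). Among inhibitors and targets of ERK signalling, Epha2, an ephrin receptor, fell by 1.06, Phlda1 by 0.88, Spry2 by 0.63, Hbegf, a ligand of the EGF receptor, by 0.60 and Errfi1, an inhibitor of that receptor, by 0.44. Limma called none of 8 genes of the p38 cascade, and 0 had an unadjusted p under 0.05. Dusp6, Phlda1 and Epha2 were lower than at 70 min (-0.60, -1.48 and -1.01, adjusted p = 0.00857, 1.47e-07 and 1.72e-05), whereas Egr1 was at 0.02 from it (0.937). Dusp1 and Dusp10 were higher than at 70 min (0.40 and 0.39, adjusted p = 0.00156 and 0.00292).

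Targets of YAP/TEAD and SRF that were called were mostly lower. Of 32, 13 fell and 2 rose, 46.9% called against 3.85% of all genes, although the list median was -0.05. Ankrd1, a cardiac ankyrin repeat protein induced by stretch, was at 9.18, 9.03 and 9.15 in the controls and at 7.81, 7.66 and 7.76 at 4 h. The groups were over 1 log2 unit apart, with a difference of -1.37 ± 0.07 (SE, 2.59-fold lower, adjusted p = 1.36e-08), the smallest adjusted p of all genes tested. It was lower than at 70 min by 0.96 (difference -0.96, adjusted p = 1.68e-07), and the 8 h arrays were above those of 4 h by 1.46 (adjusted p = 5.43e-09). Nuak1, an AMPK-related kinase, was at 8.66, 8.54 and 8.57 and then at 7.84, 7.63 and 7.42 (-0.96 ± 0.09, adjusted p = 1e-05), and its relative Nuak2 fell by 0.60. F3, tissue factor, fell by 0.57 and Ccn1, a matricellular protein, by 0.56.

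On the SRF and actin side, Fhl2, a LIM-domain cofactor, was at 8.66, 8.75 and 8.72 and then at 8.00, 7.98 and 7.96. Its treated arrays lay close together below the controls (-0.73 ± 0.08, SE, adjusted p = 4.06e-05). Zyx, a focal adhesion protein, fell by 0.50 and Myocd, the muscle cofactor of SRF, by 0.44. Vcl, vinculin, which links adhesions to actin, went the other way, from 10.84, 10.83 and 10.88 to 11.47, 11.41 and 11.50 (0.61 ± 0.04, adjusted p = 6.27e-07). The TEAD pattern GGAATG, searched on both strands, is in 13.9% of all promoters, in 7 of 14 of the YAP/TEAD genes and in 4 of the 6 lower members that have a promoter. Ankrd1, Chac1, Col3a1, Epha2, Gdf6, Hbegf, Myc, Nqo1 and Tgfb2 are each members of more than 1 list, so the list counts are not separate evidence.

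Genes of hypertrophy and of cardiac and vascular signalling were mostly lower where called, 8 of 38 falling and 1 rising. By role, 3 of 18 peptides fell, 2 of 10 receptors fell and 1 rose, and 3 of 10 transcription factors and fetal genes fell. Edn1, which encodes the vasoconstrictor endothelin-1, was at 8.83, 8.85 and 8.75 in the controls and at 7.78, 7.70 and 7.36 at 4 h. It was lower in every treated array (-1.20 ± 0.11, SE, adjusted p = 9.73e-06), yet above its 70 min level by 0.84 (adjusted p = 0.000107). Npr3, the clearance receptor of natriuretic peptides, was at 9.24, 9.17 and 9.25 and then at 8.32, 8.54 and 8.40 (-0.80 ± 0.10, adjusted p = 0.000259). Agtr1a, the angiotensin II receptor, fell by 0.58. Nppa, the atrial natriuretic peptide, was at 0.23 ± 0.13 (adjusted p = 0.452), Nppb, its ventricular relative, at -0.05 ± 0.11 (adjusted p = 0.909), and Gdf15, a stress-induced hormone, at 0.25 ± 0.13 (adjusted p = 0.376). Rgs4, which turns off G-protein signals, was at 7.34, 7.04 and 7.24 and then at 6.20, 5.98 and 5.66 (-1.26 ± 0.16, adjusted p = 0.000161), 1 of 2 called among 19 genes of RGS and cAMP feedback. The other was Pkib, a protein kinase A inhibitor, at -1.22 ± 0.26, whose call ended when any of 3 arrays was left out and with the mean of its probes (adjusted p = 0.0618).

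The nitric oxide and cGMP list had 2 called members of 20, and they were the pair of enzymes that break down asymmetric dimethylarginine, an inhibitor of nitric oxide synthase. Ddah1 was at 10.52, 10.41 and 10.49 and then at 11.07, 10.93 and 10.87, above the controls in all arrays (0.48 ± 0.06, SE, adjusted p = 6.31e-05). Ddah2 was at 8.67, 8.64 and 8.57 and then at 7.92, 7.90 and 7.85, below them in all arrays (-0.74 ± 0.07, adjusted p = 1e-05). Both were nearer to control than at 70 min (Ddah1 -0.20 and Ddah2 0.44 from it, adjusted p = 0.0364 and 0.000575). Nos2, the inducible synthase, was at 0.15 ± 0.18 (adjusted p = 0.772).

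In the TGF-beta and BMP list 5 of 34 rose and 5 fell. Bmp4 was at 9.77, 9.82 and 9.85 in the controls and at 9.01, 8.87 and 8.88 at 4 h. The groups were far apart for their spread (-0.89 ± 0.06, SE, adjusted p = 3.38e-07), and the level was lower than at 70 min by 0.49 (difference -0.49, adjusted p = 4.02e-05). Gdf6, a second BMP ligand, was at 7.96, 7.83 and 8.09 and then at 6.72, 6.83 and 7.18 (-1.05 ± 0.12, adjusted p = 8.87e-05), and Tgfb2 fell by 0.35. Without the trend in the prior variance Tgfb2 lost its call (limma adjusted p = 0.0528). Grem1, a secreted BMP antagonist, rose by 0.42 ± 0.06 (adjusted p = 0.000887). Id2, an inhibitor of helix-loop-helix factors and a BMP target, was at 4.45, 4.73 and 4.69 and then at 5.68, 5.68 and 5.33 (0.94 ± 0.14, adjusted p = 0.000766), from near the level of unnamed probes. Id1, Hes1 and the ligand Tgfb3 were also called higher and Inhba and Smad7 lower, and each lost the call on the removal of any of at least 3 arrays.

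Matrix and guidance genes fell where they were called, with few exceptions, beside the lower mean of the fibroblast markers given above, whose part in these results was not tested. Of 50 matrix genes and proteases 8 fell and 1 rose, and 3 of the lower calls held without any 1 array. Those were Cemip, which degrades hyaluronan, Fmod, a collagen-binding proteoglycan that fell by 0.64, and Timp3, a metalloproteinase inhibitor that fell by 0.45. Cemip was at 7.46, 7.62 and 7.84 and then at 6.80, 6.50 and 6.62, without overlap (adjusted p = 6.14e-05). Small leucine-rich proteoglycans had 3 of 8 lower, and Omd (-0.85) and Ogn (-0.63) lost their calls when any of 5 arrays was left out. Of the fibroblast markers Scara5, a ferritin receptor, was at 8.20, 8.27 and 8.28 and then at 7.74, 7.62 and 7.58 (-0.60 ± 0.08, SE, adjusted p = 0.000157), and Col3a1 was at -0.18 ± 0.04, a call that ended without 4 h replicate 1 or control replicate 3 (adjusted p = 0.0528 and 0.0607). Pdgfrb, the PDGF receptor of mural cells and fibroblasts, fell by 0.49. Of 33 axon guidance genes 7 fell and 2 rose, and of these only Epha2 and the semaphorin co-receptor Nrp1 (-0.39) kept the call without any 1 array. Nrp1 lost it with arrays centred on their medians (limma adjusted p = 0.0573).

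The lipid synthesis genes that were called mostly fell. Of 26 genes of cholesterol synthesis and its control 5 fell and none rose, and the list median was -0.23. Fdps, which makes farnesyl diphosphate, was at 8.92, 9.03 and 8.95 in the controls and at 8.13, 8.44 and 7.89 at 4 h. The treated arrays were all lower and spread widely (difference -0.81 ± 0.15, SE, adjusted p = 0.00534). Lss, which closes the sterol rings, fell by 0.55, Fdft1, squalene synthase, by 0.43 and Msmo1, a sterol oxidase, by 0.42. The sterol response element, searched as TCACNCCAC on both strands, is in 1.13% of all promoters and in 0 of 21 of the list. Of 19 genes of fatty acid synthesis, with a list median of -0.03, 4 fell and 1 rose, Lpin1, whose call ended when any of 4 arrays was left out. Elovl6, an elongase, was at 8.04, 7.95 and 8.19 and then at 6.95, 7.34 and 7.22 (-0.89 ± 0.13, adjusted p = 0.000572). Fads2 and Fads1, the desaturases of polyunsaturated fatty acids, fell by 0.75 and 0.48 and Scd2, a stearoyl desaturase, by 0.34.

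The called genes of protein quality control had small differences. Calls made up 18.5% of the misfolded protein response list, 13.5% of the proteasome list and 11.8% of the heat shock list. In the ATF4 list they made up 13.2%, and over all genes 3.85%. Differences lay above 0 in 9742 of all 18166 genes. Among 27 genes of the stress response to misfolded secretory proteins 5 rose and none fell, and 25 differences were above 0, with a median of 0.15. Ero1a, the oxidase that reloads disulfides, rose by 0.36 ± 0.07 (SE, adjusted p = 0.00564) and Hspa5, the chaperone BiP, by 0.23 ± 0.04 (adjusted p = 0.004). Of 37 proteasome genes 5 rose, from Vcp at 0.21 to Psmc1 at 0.26, and 34 differences were above 0, but without 1 array the number called was 0 to 4 and no call held throughout. Of 17 heat shock and chaperone genes Hspd1 and Hspe1, the mitochondrial chaperonin pair, were at 0.30 each, calls that ended when any of 4 arrays was left out. In the ATF4 list 4 of 38 rose and 1 fell, and the call of Nupr1, a stress-induced chromatin protein, at -0.48 ± 0.06 (adjusted p = 0.00014) was the 1 that held. Ddit3, the CHOP factor, was at 0.05 ± 0.09 (adjusted p = 0.878).

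Inflammatory genes that were called were lower, 5 of 31, of which Il6 held without any 1 array. It was at 5.70, 5.91 and 5.65 and then at 4.84, 5.14 and 4.98, with no overlap (-0.77 ± 0.12, SE, adjusted p = 0.0012). Dbp, a clock output factor, fell by 0.36 ± 0.07 (adjusted p = 0.00534), the 1 called of 16 clock genes. Of 37 genes of hypoxia and glycolysis 2 rose and 1 fell, of 37 calcium and ion channel genes 1 rose and 2 fell, and of 39 genes of fatty acid oxidation 1 fell, and limma's call of each of these 7 ended when at least 1 array was left out. The called share was 6.25% in the clock list, 8.11% in both the hypoxia and the channel list, and 2.56% in the fatty acid oxidation list. Over all genes it was 3.85%. No member was called by limma among 26 subunits of oxidative phosphorylation, 31 sarcomere genes, 26 interferon genes or 43 genes of the ribosome and its biogenesis. At an unadjusted p under 0.05 there were 3, 4, 1 and 11 such members, against 2746 of all 18166 genes. A list without calls is not shown to be unaffected at this number of arrays.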

How the data were processed

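RNA of 12 samples was hybridised to 1 Affymetrix array each. The deposited value table holds log2 expression that the authors summarised by RMA, and the submitters' processing notes name Affymetrix Expression Console, version 1.3.1.187, as the software. It lists 36685 probes, of which 18511 carry a single gene symbol in the platform annotation, 575 several and 17599 none. Per symbol the probe with the highest mean over the 12 arrays was kept, which left 18166 genes, 291 of them with several probes. No value was filtered, and no further normalization was applied.

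Differences were tested with limma 3.58.1 in R 4.3.3, in 1 model of the 4 groups of 3 arrays with 8 residual degrees of freedom and an intensity trend in the prior variance. P-values were adjusted by Benjamini-Hochberg over all genes within each comparison, and a gene was called at an adjusted p under 0.05. The step was tested on simulated data, with independent arrays and genes changed only at 4 h. That check covers neither shifts in array medians nor cultures that were not separate. The number of arrays limits the precision, with a median SE of 0.131.

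The 41 gene lists hold 1219 symbols, 1062 of them tested. The members and lists were chosen with earlier results of these data known, so no list is independent support for its direction. The rule for named genes took the 20 largest called differences in each direction among genes whose arrays did not overlap and whose level was above the median gene. It also took up to 8 called members of each list role, up to 3 uncalled ones where few were called, and a set of genes always given. Among these, the text preferred genes whose call held under every setting, after the values had been seen. A few called genes beyond the rule were named for the same reason or to complete a count.

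Same-numbered control and 4 h arrays deviated from their group means with correlations of -0.218 to -0.001, so the numbers were not taken to pair the arrays. Alternatives changed the prior variance, array weights, normalization, centring, probe choice, level filter and samples in the model, and left out each array. Promoter sequences are RefSeq's, build GRCr8, and figures were drawn with matplotlib 3.10.9.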

Additional observations from a re-analysis of the deposited data

Results flagged for a closer look

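In 37 genes the difference from control was called in one direction at 70 min and in the other at 4 h, and the 4 h arrays also differed from the 70 min arrays in the direct limma test. Of these, 12 are named in the report. Both differences from control share the same 3 control arrays, which do not enter the direct difference but do enter its estimate of the spread.

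Genes that were lower than control at 70 min and higher at 4 h included Bcl2l11, which encodes BIM, at -1.03 ± 0.16 (SE) and then 0.81 ± 0.16, a direct difference of 1.84 (adjusted p = 8.94e-07). Grem1, the BMP antagonist, went from -0.63 to 0.42 (direct difference 1.05, adjusted p = 2.37e-08), and Abcc4, the efflux pump, from -0.66 to 0.37 (1.03, 3.58e-08). Chac1, which breaks down glutathione, went from -0.60 to 0.39 (0.99, 1.04e-06), although its call at 4 h ended when any of 5 arrays was left out. Txnip, the thioredoxin inhibitor, went from -0.45 to 0.43 (0.89, 2.37e-08). Gadd45a went from -0.42 to 0.39 (0.81, 2.75e-07) and Ptgr1 from -0.41 to 0.39 (0.80, 2.49e-06).

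The opposite course, higher at 70 min and lower at 4 h, was seen in Phlda1, an ERK target, at 0.60 ± 0.11 (SE) and then -0.88 ± 0.11, a direct difference of -1.48 (adjusted p = 1.47e-07). Bcl2 went from 0.41 to -0.83 (direct difference -1.24, adjusted p = 2.49e-06) and Fhl2 from 0.37 to -0.73 (-1.10, 1.04e-07). Ahr, the receptor, went from 0.27 to -0.51 (-0.78, 4.59e-07), and Errfi1, the EGF receptor inhibitor, from 0.23 to -0.44 (-0.67, 7.68e-06).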

How the results depend on the processing

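The count of 699 genes called between 4 h and control was 339 when the prior variance had no intensity trend and 341 with arrays centred on their medians. It ranged from 373 to 575 with 1 array left out, lowest without control replicate 2, and the other settings gave 557 to 846. For 4 h against 70 min the 1386 calls became 763 when only the compared groups were fitted and 885 to 1799 with 1 array left out. For 8 h against 4 h the 637 calls became 315 without the trend, 300 with centring, 330 with the compared groups only, and 299 to 504 with 1 array left out. The cause of these shifts was not tested, beyond the smaller number of arrays in the fits that leave some out. With the replicate number as a block 681 genes were called (365 higher, 316 lower), 633 of them among the 699, and 0 of 3 arrays at 4 h were closest to the control of their own number. With 1 array left out, Ddit3 ran from -0.06 to 0.12, Nos2 from -0.03 to 0.35 and Nppb from -0.13 to 0.04, a change of sign in 3 genes that were not called.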

Other observations

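Several called genes lay outside the lists, and the calls of those named here held under every setting; they were picked for this after their values were seen. On the higher side, Mms22l, which works in repair of stalled replication forks, was at 6.46, 6.38 and 6.37 in the controls and at 7.10, 7.19 and 7.13 at 4 h, with no overlap (0.74 ± 0.09, SE, limma adjusted p = 0.000161). Ticrr, which helps start replication origins, rose by 0.81 ± 0.12 (adjusted p = 0.000545). Glb1l2, a relative of beta-galactosidase, rose by 0.84 ± 0.09 (adjusted p = 6.14e-05), and Pter, a phosphotriesterase-related protein, by 0.73 ± 0.11 (adjusted p = 0.000636).

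On the lower side, Adgrl3, an adhesion receptor of the latrophilin family, lay between 7.15 and 7.28 in the controls and at or below 6.19 in every 4 h array (-1.13 ± 0.10, SE, adjusted p = 9.73e-06). Aldh1a2, which makes retinoic acid, was at -0.95 ± 0.15 (adjusted p = 0.000927), and Thbd, the thrombomodulin receptor of thrombin, at -0.88 ± 0.12 (adjusted p = 0.000278). Depp1, a FOXO target, was at -0.90 ± 0.13 (adjusted p = 0.000525) and Map2, a microtubule protein of neurons, at -0.86 ± 0.12 (adjusted p = 0.000326).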
